A study of Mus musculus with 15 samples.

Results

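The effect of *APOE4* on hippocampal RNA was measured on 2 genetic backgrounds, with and without mutations in *App*, and the difference between both effects was computed for every expressed gene. It is the log2 difference of DM minus APP-TKI mice of batch 1, less the log2 difference of ApoE4 minus WT mice of batch 2, from raw read counts of whole hippocampus. A positive value means that the log2 difference between carriers of *APOE4* and mice without it was more positive when the *App* mutations were present. It can come from a higher level in DM or batch 2 WT mice, a lower level in APP-TKI or ApoE4 mice, or several of these. The comparison used 12 of the 15 RNA sequencing libraries and the 16171 of 55471 genes that had more than 1 CPM (count per 1000000 counts of the library) in at least 3 libraries. The remaining 3 libraries, WT mice of batch 1, entered the fit for its estimate of the spread.

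All mice were 3-month-old females, with 3 libraries a group. APP-TKI mice were homozygous for the App NL-G-F knock-in, which places 3 familial Alzheimer's disease mutations and a humanized Aβ sequence in the mouse gene at its own locus. ApoE4 mice were heterozygous (ApoE4+/wt) and therefore kept a mouse *Apoe* copy beside the human *APOE4* copy. DM mice carried both alterations and came from matings of these lines, and WT mice carried neither. Each batch held its own controls, so a shift shared by all libraries of a batch cancels in the comparison. Whatever else differs between the batches in the contrast itself cannot be told apart from the *App* background. Litters are not named in the sources used here, and p-values rest on how far 3 libraries of the same genotype varied.

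The App gene encodes the precursor that secretases cleave to Aβ, the peptide of amyloid plaques, and apolipoprotein E carries cholesterol and other lipids between brain cells. In the brain, astrocytes are the main source of apolipoprotein E, and microglia and cells of the vessel wall make it too. The vessel wall is built of endothelial cells joined by tight junctions, of pericytes on capillaries, and of contractile smooth muscle on arterioles, with fibroblasts around the larger vessels and in the meninges. The human E4 form is the major genetic risk allele of late-onset Alzheimer's disease and has long been linked to leakage of the blood-brain barrier.

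The 12 libraries held between 34345854 and 44630808 counts. The summed level of 10 genes of CA1 pyramidal neurons was 963 to 1262 CPM and that of 14 genes of dentate granule neurons 995 to 1155 CPM, so that hippocampal neurons were represented in every library. Several libraries stood apart in markers of other tissues. Genes of striatal neurons summed to 1648 CPM in ApoE4 replicate 3 against 402 to 450 CPM in the other 14 libraries, and genes of the thalamus and habenula to 983 CPM in batch 2 WT replicate 3 against 214 to 450 CPM. Choroid plexus genes summed to 3210 CPM in ApoE4 replicate 1 and 2735 CPM in batch 2 WT replicate 3, against 141 to 334 CPM in the other 13. Pituitary genes summed to 7.90, 13.4 and 23.02 CPM in the 3 batch 2 WT libraries and to at most 3.02 CPM elsewhere. Genes annotated as long noncoding RNA held 2.65 to 2.89% of counts in 4 libraries of batch 1 (WT 1, APP-TKI 1 and 2, DM 1). Their share was 2.16 to 2.32% in the other libraries of batch 1 and 1.66 to 1.83% in batch 2. Results that change without these libraries are given with and without them, and the 2 exclusions for tissue markers were chosen after seeing the data.

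**Figure D1:**
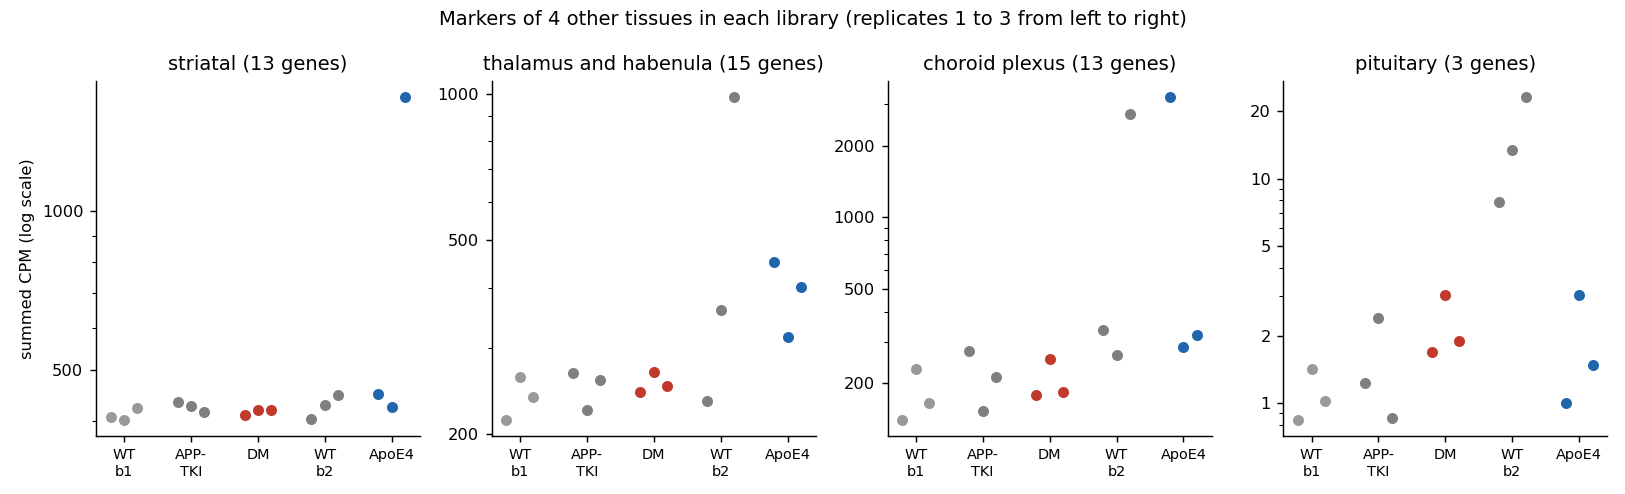
Summed CPM (log scale) of marker genes of 4 other tissues, with 1 point for each of the 15 libraries, by group (b1 and b2 are batch 1 and batch 2). ApoE4 replicate 3 is the high point for striatal genes at 1648 CPM, batch 2 WT replicate 3 the high point for thalamic and habenular genes at 983 CPM, and the 3 batch 2 WT libraries hold the highest pituitary values.

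No gene passed the threshold in the difference of the *APOE4* effects. By edgeR's quasi-likelihood test, with p-values adjusted over all 16171 genes after Benjamini and Hochberg, 0 were called at an adjusted p under 0.1 and the smallest adjusted p was 0.2625, for *Myh11*. Without adjustment 1107 genes, or 6.85%, had p under 0.05, 656 of them higher (4.06%) and 451 lower (2.79%). DESeq2 called 26 genes (0.161%), 18 higher and 8 lower, and the robust likelihood ratio test of edgeR called 121 (0.748%), 71 higher and 50 lower. The 2 lists shared 25 genes, which is 96.2% of the first and 20.7% of the second. The median 95% confidence interval of a gene extended 0.31 on the log2 scale to either side of its estimate.

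Of the effects that enter the comparison, that of *APOE4* with *App* mutations had a single called gene (0.00618%), the pseudogene *Gm10736*, and that without had 0 by the same edgeR test. *Gm10736* stood at 18.8, 19.5 and 18.3 CPM in APP-TKI and at 30.0, 32.0 and 36.7 CPM in DM mice, a log2 difference of 0.80 ± 0.11 (SE, adjusted p = 0.0533). Its reads can belong to a near-identical copy elsewhere, so its level is uncertain. An unadjusted p under 0.05 was reached by 635 genes (3.93%) with *App* mutations, 453 higher (2.80%) and 182 lower (1.13%). Without them it was reached by 1006 (6.22%), 541 higher (3.35%) and 465 lower (2.88%). DESeq2 called 20 and 45 genes in these 2 comparisons, and the robust likelihood ratio test called 42 and 102.

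The *APOE4* effects on both backgrounds had little relation across genes. Across the 16171 genes the 2 log2 differences had a Pearson r of -0.07 and a Spearman rho of -0.14, and 42.3% of genes had the same sign in both. This is a description across genes, which are not independent replicates, over 2 sets of libraries that share none. The SD of the log2 differences over genes was 0.19 with *App* mutations and 0.22 without. Of the 1107 genes with an unadjusted p under 0.05, the effect without *App* mutations was the larger in 633.

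**Figure D2:**
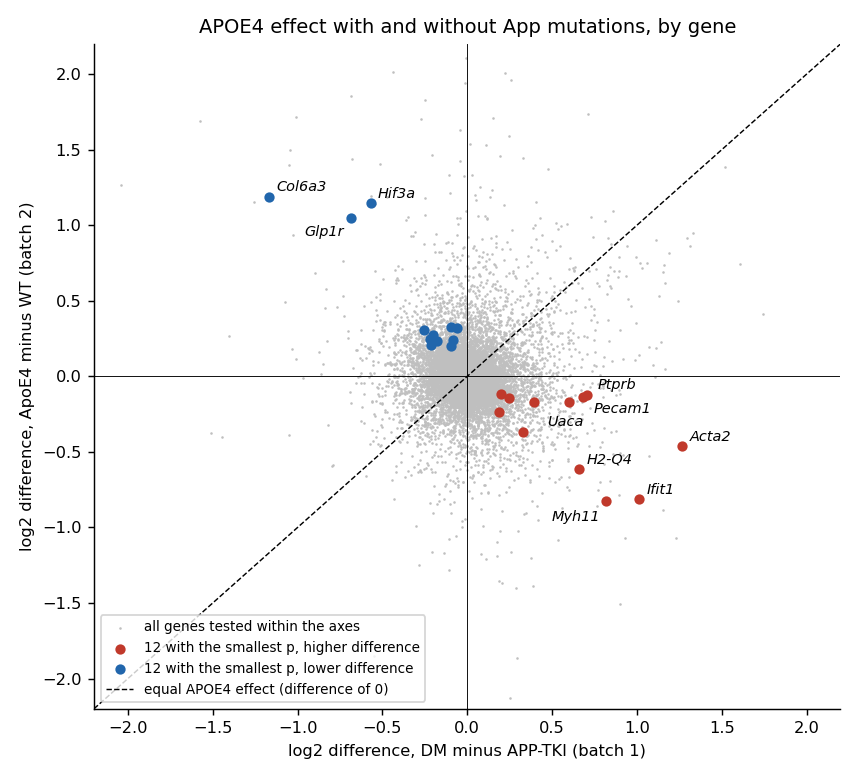
Each point is 1 gene, with the log2 difference of DM minus APP-TKI (batch 1) on the horizontal axis and of ApoE4 minus WT (batch 2) on the vertical axis. Colours mark the 12 protein-coding genes with the smallest p in each direction, all of which missed the adjusted threshold. The dashed line marks equal effects, and 11 genes lie outside the axes.

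*Myh11* had the smallest p of all genes, and *Pecam1*, *Ptprb*, *Acta2* and *Podxl*, also known from the vessel wall, were with it among the 12 protein-coding genes with the smallest p in the higher direction. *Myh11*, the myosin heavy chain of smooth muscle (chromosome 16, 14194535 to 14291372, GRCm38), stood at 2.64, 2.26 and 2.06 CPM in APP-TKI and 3.63, 3.49 and 5.13 CPM in DM mice. In batch 2 it stood at 8.22, 8.77 and 11.9 CPM in WT and 5.88, 4.998 and 5.41 CPM in ApoE4 mice. All DM libraries thus lay above all APP-TKI libraries, and all ApoE4 libraries below all WT libraries. The log2 difference was 0.82 with *App* mutations and -0.83 without, which gives 1.64 ± 0.26 (SE) for the difference of effects, with a 95% confidence interval of 1.08 to 2.21. Its WT level in batch 1 was 1.92 to 2.68 CPM, so that batch 2 as a whole stood at a higher level.

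*Acta2*, the smooth muscle actin, stood at 2.49, 1.26 and 2.67 CPM in APP-TKI and 5.44, 4.13 and 5.93 CPM in DM mice. In batch 2 it measured 7.87, 9.65 and 13.5 CPM in WT and 6.06, 7.99 and 8.47 CPM in ApoE4 mice. Groups were separate in batch 1 and overlapped in batch 2, and the difference of effects was 1.73 ± 0.37 on the log2 scale. *Tagln*, an actin-binding protein of the same cells, was 1.58, 2.02 and 1.70 CPM in APP-TKI and 2.46, 3.05 and 3.78 CPM in DM mice, and it had a difference of 1.15 ± 0.27. *Tpm2*, a muscle tropomyosin, had 0.64 ± 0.21 and was separate in opposite directions on both backgrounds, with 3.08 to 3.70 CPM in APP-TKI, 3.74 to 4.33 CPM in DM, 3.79 to 5.33 CPM in WT and 3.18 to 3.40 CPM in ApoE4 mice. Of 13 smooth muscle genes, 9 passed the filter, 8 had a difference above 0 and 4 had an unadjusted p under 0.05, all higher. Their median was 0.39, against 0.01 over all genes, of which 52.6% lay above 0. Without the 3 libraries high in choroid plexus, striatal or thalamic genes the median was 0.52, and without batch 2 WT replicate 1 it was 0.65. Leaving out ApoE4 replicate 3 gave 0.36, and leaving out batch 2 WT replicate 3 gave 0.38. The summed level of the list overlapped on both backgrounds. It was 185 to 190 CPM in APP-TKI, 189 to 200 CPM in DM, 217 to 229 CPM in WT and 204 to 231 CPM in ApoE4 mice.

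Endothelial genes had the most members above 0 among the vascular lists. Of 40 such genes 39 were measured, 38 had a difference above 0, and 18 had an unadjusted p under 0.05, all higher. Over all genes, 52.6% lay above 0 and 4.06% were higher at such a p. The median difference of the list was 0.46, made of 0.39 with *App* mutations and -0.07 without. Its members include *Pecam1*, *Ptprb*, *Cdh5*, *Vwf* and *Flt1*, which the study named as differing between DM and APP-TKI mice in these same libraries. The summed level of the list was 679, 690 and 706 CPM in APP-TKI and 766, 769 and 845 CPM in DM mice. In batch 2 it was 995, 953 and 978 CPM in WT and 1033, 888 and 830 CPM in ApoE4 mice. Every DM library lay above every APP-TKI library, while ApoE4 and WT overlapped. WT mice of batch 1 had 662 to 705 CPM, below all batch 2 libraries. In RNA of a whole tissue, fewer cells of a type and less RNA per cell cannot be told apart.

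Among single endothelial genes, *Pecam1*, an adhesion molecule at endothelial junctions, stood at 4.81, 5.80 and 5.72 CPM in APP-TKI and 7.91, 8.37 and 9.94 CPM in DM mice. It stood at 13.7, 12.8 and 12.7 CPM in WT and 12.1, 12.99 and 10.7 CPM in ApoE4 mice, for a difference of effects of 0.82 ± 0.17. The groups were separate with *App* mutations and overlapped without. *Cldn5*, the claudin that seals the tight junctions of the barrier, was 7.004, 5.51 and 4.22 CPM in APP-TKI and 8.79, 6.401 and 10.1 CPM in DM mice, which overlapped. It was 14.1, 10.2 and 9.47 CPM in WT and 9.05, 7.32 and 6.78 CPM in ApoE4 mice, which did not, and the difference was 1.14 ± 0.28. For *Cldn5* both backgrounds added to the difference, with 0.60 and -0.54.

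Other named endothelial genes also had most of their difference with *App* mutations. The study named *Pecam1*, *Ptprb*, *Cdh5*, *Vwf* and *Flt1* as differing between DM and APP-TKI mice in these same libraries. *Acta2*, *Cavin1* and *Anxa2* were named there too. How these genes were chosen therefore favours a large part with *App* mutations in these libraries. Apart from sequencing, the study reported quantitative PCR on hippocampus of mice of both sexes at the same age. *Acta2*, *Anxa2*, *Cdh5*, *Flt1*, *Pecam1*, *Ptprb* and *Vwf* were significantly higher there in DM than APP-TKI mice. Except for *Acta2*, the study saw no such rise in ApoE4 over WT mice. Those PCR values were not examined here. *Ptprb*, a receptor phosphatase of endothelial cells, had a log2 difference of 0.71 with *App* mutations and -0.12 without. *Podxl*, a sialomucin of the luminal surface, had 0.39 and -0.17, and *Cdh5*, the cadherin of endothelial junctions, had 0.73 and -0.07. *Vwf*, the clotting protein von Willebrand factor, had 1.11 and -0.00, and DM replicate 1 stood at 11.8 CPM against 4.85 and 5.73 CPM in the other DM libraries. *Flt1*, a receptor for vascular endothelial growth factors, had 0.62 and -0.06. *Uaca*, a coiled-coil protein, was also among the 12 genes, at 0.60 and -0.17.

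Without the 2 libraries high in striatal or thalamic genes, the endothelial median was 0.50, and 36 of 39 genes remained above 0. It was 0.56 without the 3 libraries named above and 0.45 without the 4 libraries high in noncoding RNA. Leaving out any 1 library gave 0.38 to 0.60.

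**Figure D3:**
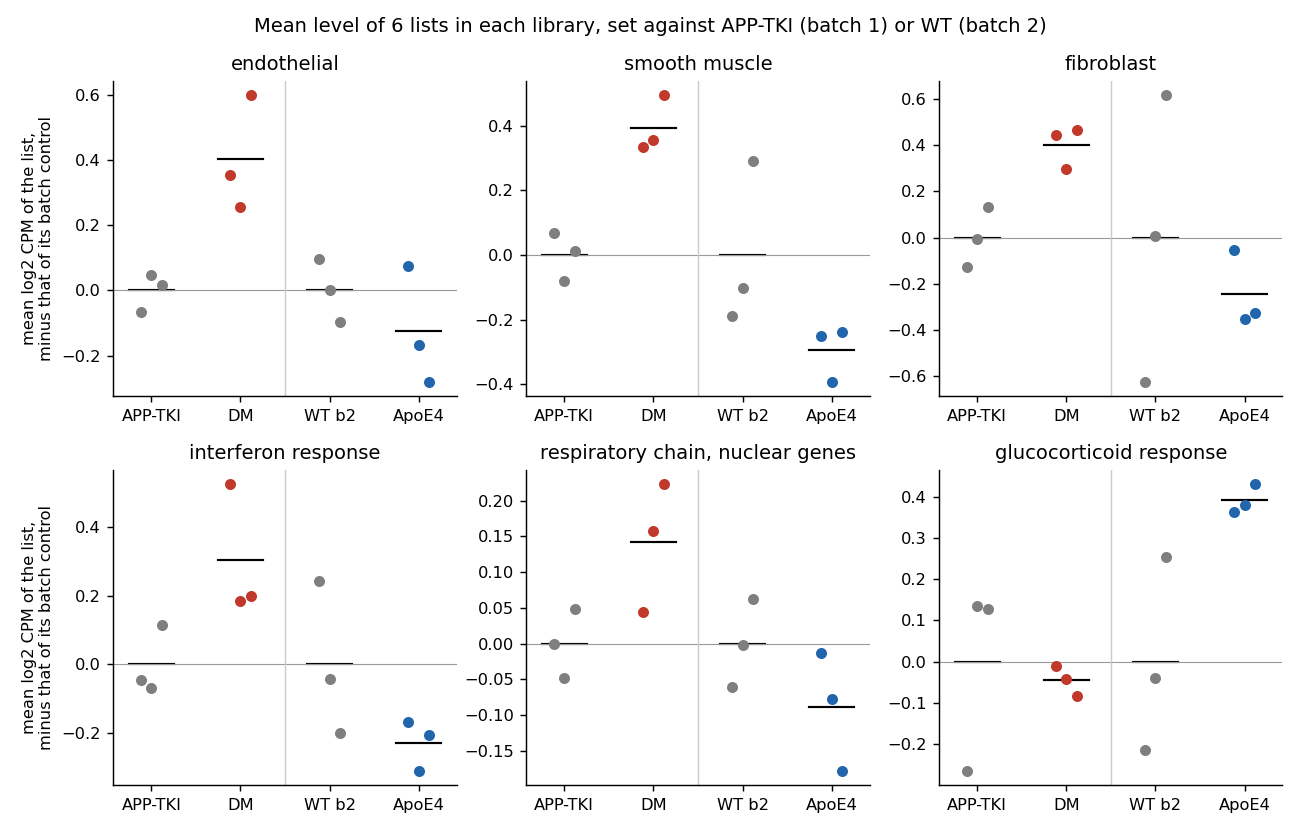
Mean log2 CPM over the measured genes of 6 lists, with 1 point for each of the 12 libraries and bars at the group means, drawn relative to the mean of APP-TKI in batch 1 or of WT in batch 2. On this scale, which weighs genes equally, all DM libraries lie above all APP-TKI libraries in the endothelial, smooth muscle, fibroblast and interferon panels, and all ApoE4 libraries lie above all WT libraries in the glucocorticoid panel.

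The receptors and growth factor pathways of vessels held 7 genes with p under 0.05 among 43 measured, all higher, with a median of 0.08. *Tek* and *Tie1*, the angiopoietin receptor and its partner, had differences of 0.95 ± 0.26 and 0.95 ± 0.29. Both, like *Kdr*, are also on the endothelial list, so its count shares genes with this one. *Kdr*, the main receptor for vascular endothelial growth factor A, was 4.34, 4.43 and 5.20 CPM in APP-TKI and 5.55, 6.07 and 7.07 CPM in DM mice. It was 11.3, 8.94 and 9.24 CPM in WT and 8.78, 8.33 and 5.92 CPM in ApoE4 mice, so that groups were separate in opposite directions, and the difference was 0.77 ± 0.25. Of 27 measured genes of barrier transport and caveolae, 8 were higher and 1 lower at an unadjusted p under 0.05, with a median of 0.15. They included *Slc16a1*, a lactate transporter (0.45 ± 0.13), and *Cavin1*, a coat protein of caveolae (0.69 ± 0.19, with 0.61 on the *App* background and -0.07 off it). Pericyte genes were less one-sided, with 11 of 15 above 0, a median of 0.16 (0.08 without ApoE4 replicate 3) and 1 gene at p under 0.05. That gene was *Vtn*, which encodes vitronectin, at 0.53 ± 0.16.

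The plasminogen system, which dissolves clots and remodels matrix, had 10 of 15 genes measured, 7 of them above 0 and 4 at an unadjusted p under 0.05. *Plau*, the urokinase activator, was 2.14, 2.198 and 1.86 CPM in APP-TKI and 2.203, 2.36 and 2.69 CPM in DM mice, and 2.32, 1.88 and 2.03 CPM in WT and 1.497, 1.33 and 1.67 CPM in ApoE4 mice. Its groups were separate in opposite directions and the difference was 0.69 ± 0.24. *Thbd*, thrombomodulin of the vessel lining, had 0.93 ± 0.33, *S100a10*, a partner of annexin A2, 0.37 ± 0.16, and *Anxa2* itself 0.68 ± 0.28. For *Thbd* batch 2 WT replicate 3 stood at 9.78 CPM against 4.53 and 6.61 CPM in the other WT libraries. Without the 2 libraries high in striatal or thalamic genes the median of the list was -0.01 in place of 0.22, so its direction turned, and it was 0.04 without WT replicate 3 alone and 0.14 without APP-TKI replicate 1.

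Genes of perivascular and meningeal fibroblasts had a median of 0.64, with 26 of 27 above 0 and 10 at an unadjusted p under 0.05, all higher. The summed level was 775, 731 and 887 CPM in APP-TKI and 1143, 999 and 1137 CPM in DM mice. Batch 2 WT libraries spread from 689 over 965 to 1365 CPM, and ApoE4 libraries held 885, 870 and 806 CPM. *Slc6a13*, a transporter of GABA and taurine, was 3.31, 4.19 and 4.58 CPM in APP-TKI and 6.71, 4.85 and 6.04 CPM in DM mice. In batch 2 it spread over 3.68, 6.73 and 11.4 CPM in WT mice and stood at 4.87, 4.24 and 4.55 CPM in ApoE4 mice, for a difference of 1.22 ± 0.40. *Slc6a20a*, a proline transporter, had 0.94 ± 0.32, *Slc22a6*, an organic anion transporter, 1.21 ± 0.47, and *Nnat*, a small membrane proteolipid, 0.52 ± 0.15.

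The fibroblast median was 0.44 with *App* mutations and -0.30 without. The part without *App* mutations leaned on batch 2 WT replicate 3 and was 0.03 when that library was left out. Without the 2 libraries high in striatal or thalamic genes, the fibroblast median of the difference was 0.45. Then 20 of 27 genes lay above 0, with 2 higher and 1 lower at p under 0.05. Leaving out batch 2 WT replicate 3 alone gave 0.41 with 3 genes at p under 0.05, and leaving out WT replicate 1 gave 0.88 with 18. Leaving out APP-TKI replicate 1 gave 6 such genes, and leaving out the 4 libraries high in noncoding RNA gave 1. Genes of the extracellular matrix as a whole went both ways, with 38 of 67 above 0, 4 higher and 5 lower at p under 0.05 and a median of 0.12, which was -0.11 without the 2 libraries, -0.10 without batch 2 WT replicate 3 and -0.01 without DM replicate 1. It was 0.22 without ApoE4 replicate 1, and 0.20 with 12 genes higher without batch 2 WT replicate 1. *Fn1*, fibronectin, had 0.63 ± 0.19. *Lama3*, a laminin chain, had -0.59 ± 0.19, with DM below APP-TKI and ApoE4 above WT in every library.

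**Figure D4:**
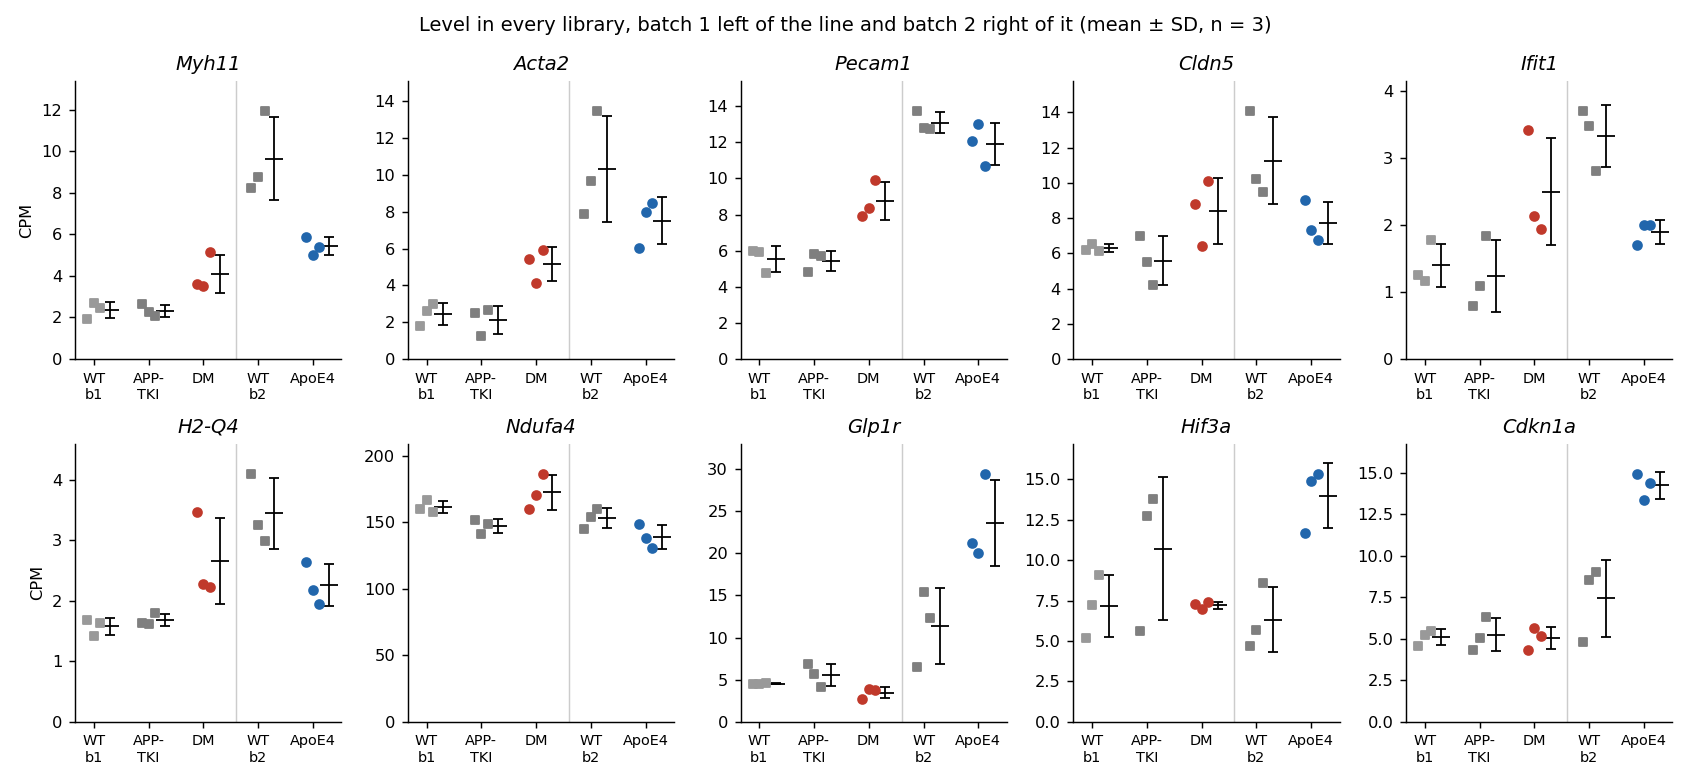
CPM of 10 genes in each of the 15 libraries by group, with the mean ± SD of the 3 libraries beside the points (b1 and b2 are batch 1 and batch 2). *Myh11* and *Ifit1* are higher in all DM than all APP-TKI libraries and lower in all ApoE4 than all batch 2 WT libraries, while *Glp1r* has the reverse order.

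Interferon response genes, which cells switch on when type I interferons bind their receptor, had a median difference of 0.64. Of 25 genes 21 were measured, 18 lay above 0, and 9 had an unadjusted p under 0.05, all higher. The median was 0.37 with *App* mutations, where 6 were higher at p under 0.05, and -0.20 without, where 4 were lower. The summed level was 113, 112 and 117 CPM in APP-TKI and 140, 118 and 115 CPM in DM mice, and 147, 130 and 128 CPM in WT and 127, 119 and 119 CPM in ApoE4 mice. In the sum, which abundant genes dominate, DM and APP-TKI overlapped and DM replicate 1 was the highest of its batch, while ApoE4 libraries were all below WT libraries. In the mean log2 level, which weighs genes equally, DM and APP-TKI were separate and ApoE4 and WT overlapped.

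*Ifit1* (chromosome 19, 34640871 to 34650009, GRCm38), an interferon-induced protein that binds foreign RNA, stood at 0.791, 1.08 and 1.83 CPM in APP-TKI and 3.42, 2.13 and 1.95 CPM in DM mice. In batch 2 it stood at 3.71, 3.48 and 2.81 CPM in WT and 1.70, 2.00 and 2.00 CPM in ApoE4 mice. The groups were separate in opposite directions, and the difference of effects was 1.82 ± 0.40, with a 95% confidence interval of 0.97 to 2.68. These are low counts, and APP-TKI replicate 1 lay below the 1 CPM of the filter. *Ifit3* was 4.28, 3.99 and 5.03 CPM in APP-TKI, 8.06, 6.79 and 5.99 CPM in DM, 9.34, 7.06 and 7.02 CPM in WT and 5.50, 5.52 and 5.99 CPM in ApoE4 mice. It too was separate in opposite directions, with 1.11 ± 0.27, but shares sequence with *Ifit3b*, so its reads may be split between them. *Ifit2* had 0.64 ± 0.18, also separate on both backgrounds, and *Rtp4*, a chaperone of receptors, had 0.88 ± 0.29.

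The promoters of these genes are shown because most genes of the list lay on the same side of 0. The element bound by the interferon-activated complex was searched as GAAANNGAAA on both strands in the 250 bases before the gene start, from RefSeq on GRCm38.p6, for the 11614 of 16171 genes with an entry. It was present in 2.96% of them, in 10 of the 18 interferon genes with an entry (55.6%), in 2 of 13 genes of complement and MHC class I, and in 0 of 22 endothelial and 0 of 7 smooth muscle genes. Capitals mark the matches, which appear as the reverse complement where they lie on the other strand, and overlapping matches run together. The windows lie at chr19:34640639-34640888 (*Ifit1*, plus strand), chr19:34583279-34583528 (*Ifit3*, plus strand) and chr4:156200819-156201068 (*Isg15*, minus strand).
Ifit1: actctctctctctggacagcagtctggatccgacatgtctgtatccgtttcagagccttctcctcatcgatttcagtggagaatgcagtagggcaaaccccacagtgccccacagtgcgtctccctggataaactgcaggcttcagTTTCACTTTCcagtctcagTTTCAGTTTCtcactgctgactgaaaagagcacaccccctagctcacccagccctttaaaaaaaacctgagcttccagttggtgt
Ifit3: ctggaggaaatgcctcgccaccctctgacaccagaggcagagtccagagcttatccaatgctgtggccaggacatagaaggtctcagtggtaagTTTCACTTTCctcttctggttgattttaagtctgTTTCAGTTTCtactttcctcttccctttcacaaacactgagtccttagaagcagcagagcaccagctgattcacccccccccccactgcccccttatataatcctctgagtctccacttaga
Isg15: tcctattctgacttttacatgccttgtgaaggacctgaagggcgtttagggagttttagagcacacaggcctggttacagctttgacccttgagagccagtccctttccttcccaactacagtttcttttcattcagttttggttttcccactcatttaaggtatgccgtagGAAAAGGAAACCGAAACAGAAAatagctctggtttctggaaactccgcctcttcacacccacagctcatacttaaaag
*Isg15*, a ubiquitin-like protein, holds 3 overlapping matches, the nearest 56 bases before the start. It was chosen after its values were seen, and its difference was 0.87 ± 0.42 at an unadjusted p of 0.0587. A match is a description of letters and not of a bound site, and of a window without one nothing follows about the factor.

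Genes of antigen presentation and complement leaned the same way, with 16 of 18 above 0, a median of 0.21 and 5 at an unadjusted p under 0.05, all higher. Without APP-TKI replicate 2 or ApoE4 replicate 2 that number was 1, and without ApoE4 replicate 1 the median was 0.35. *H2-Q4*, an MHC class I gene of the Qa region, was 1.64, 1.61 and 1.81 CPM in APP-TKI and 3.47, 2.27 and 2.23 CPM in DM mice, and 4.11, 3.25 and 2.99 CPM in WT and 2.64, 2.19 and 1.95 CPM in ApoE4 mice. It was separate in opposite directions, and its difference was 1.27 ± 0.28. Genes of the Qa region are closely related in sequence, so reads may be shared. *H2-K1*, a classical class I gene, had 0.40 ± 0.17, *B2m*, the shared light chain, 0.28 ± 0.11, and *Tapbp*, which loads peptides, 0.29 ± 0.11. Without the 4 libraries high in noncoding RNA the interferon median was 0.33 with 4 genes at p under 0.05, and without the 2 libraries high in striatal or thalamic genes it was 0.72 with 9. Leaving out batch 2 WT replicate 1 alone gave 0.34 with 7.

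The nuclear genes of the mitochondrial respiratory chain, which pass electrons to oxygen and make ATP, differed little each but nearly all in 1 direction. Of 73 genes, 72 lay above 0 and 42 had an unadjusted p under 0.05, all higher, with a median of 0.22. With *App* mutations 72 of 73 lay above 0, with a median of 0.11, where 50.4% of all genes lay above 0. Without them 2 lay above 0, with a median of -0.09, where 45.9% of all genes did. The list summed to 9041, 8689 and 9378 CPM in APP-TKI and 9112, 9971 and 10350 CPM in DM mice. In batch 2 it summed to 8690, 9017 and 9323 CPM in WT and 8847, 8583 and 8039 CPM in ApoE4 mice. DM replicate 1 lay among the APP-TKI libraries and ApoE4 replicate 1 among the WT libraries, so the groups overlapped on both backgrounds.

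*Ndufa4*, which is a subunit of cytochrome oxidase, stood at 152, 141 and 149 CPM in APP-TKI and 160, 170 and 187 CPM in DM mice, and at 145, 154 and 160 CPM in WT and 148, 138 and 131 CPM in ApoE4 mice. Its difference was 0.37 ± 0.09. *Ndufb3* and *Ndufs6*, subunits of complex I, had 0.37 ± 0.09 and 0.44 ± 0.12, and *Atp5k*, a subunit of ATP synthase, had 0.54 ± 0.15. The number of these genes at p under 0.05 depended on single libraries. Leaving out ApoE4 replicate 3 gave 21, leaving out batch 2 WT replicate 3 or DM replicate 3 gave 23, leaving out APP-TKI replicate 2 gave 26, and leaving out DM replicate 1 gave 55. It was 11 without the 2 libraries high in striatal or thalamic genes, while the median was 0.14 and 71 of 73 genes stayed above 0. The 13 genes of the mitochondrial genome had a median of 0.05, 11 of them above 0 and 0 at an unadjusted p under 0.05, and -0.02 without the 2 libraries and -0.03 without the 4 high in noncoding RNA.

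Other housekeeping machinery leaned the same way. Cytosolic ribosomal protein genes had 75 of 78 above 0, a median of 0.13 and 16 at an unadjusted p under 0.05, all higher. That number ran from 6 (without DM replicate 3, ApoE4 replicate 2 or batch 2 WT replicate 3) to 33 (without DM replicate 1). *Rps29* stood at 133, 147 and 151 CPM in APP-TKI and 191, 198 and 233 CPM in DM mice, while WT at 128, 139 and 149 CPM and ApoE4 at 146, 128 and 136 CPM overlapped. Its difference was 0.56 ± 0.15. *Rpl38* had 0.49 ± 0.14, *Rps28* 0.45 ± 0.12 and *Rpl19* 0.35 ± 0.12, each close to its difference with *App* mutations of 0.44, 0.40 and 0.37. The study named these genes and *Rps29* as differing between DM and APP-TKI mice in the same libraries, so this follows from their choice. Processed pseudogenes copy many ribosomal protein genes, which makes their counts uncertain. Mitochondrial ribosomal proteins had a median of 0.11 with 44 of 49 above 0 and 4 at p under 0.05, and proteasome subunits 0.11 with 29 of 31 above 0 and 3 at p under 0.05 (14 without APP-TKI replicate 3). The examples with the smallest p were *Mrpl13* (0.28 ± 0.10) and *Psmb2* (0.24 ± 0.08).

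Short genes make up most of these lists, and the median of short genes as a class differed too. When the protein-coding genes were divided into 4 classes of equal size by exon length, the median difference was 0.09, 0.02, -0.01 and -0.04 from the shortest to the longest. With *App* mutations the classes ran from 0.05 to -0.02, and without them from -0.04 to 0.01. The shortest class held 55 of the 73 respiratory chain genes, 63 of the 78 ribosomal genes, 29 of the 49 mitochondrial ribosomal genes and 17 of the 31 proteasome genes, but 10 of the 39 endothelial genes. The part of transcript length in these results was not tested.

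**Figure D5:**
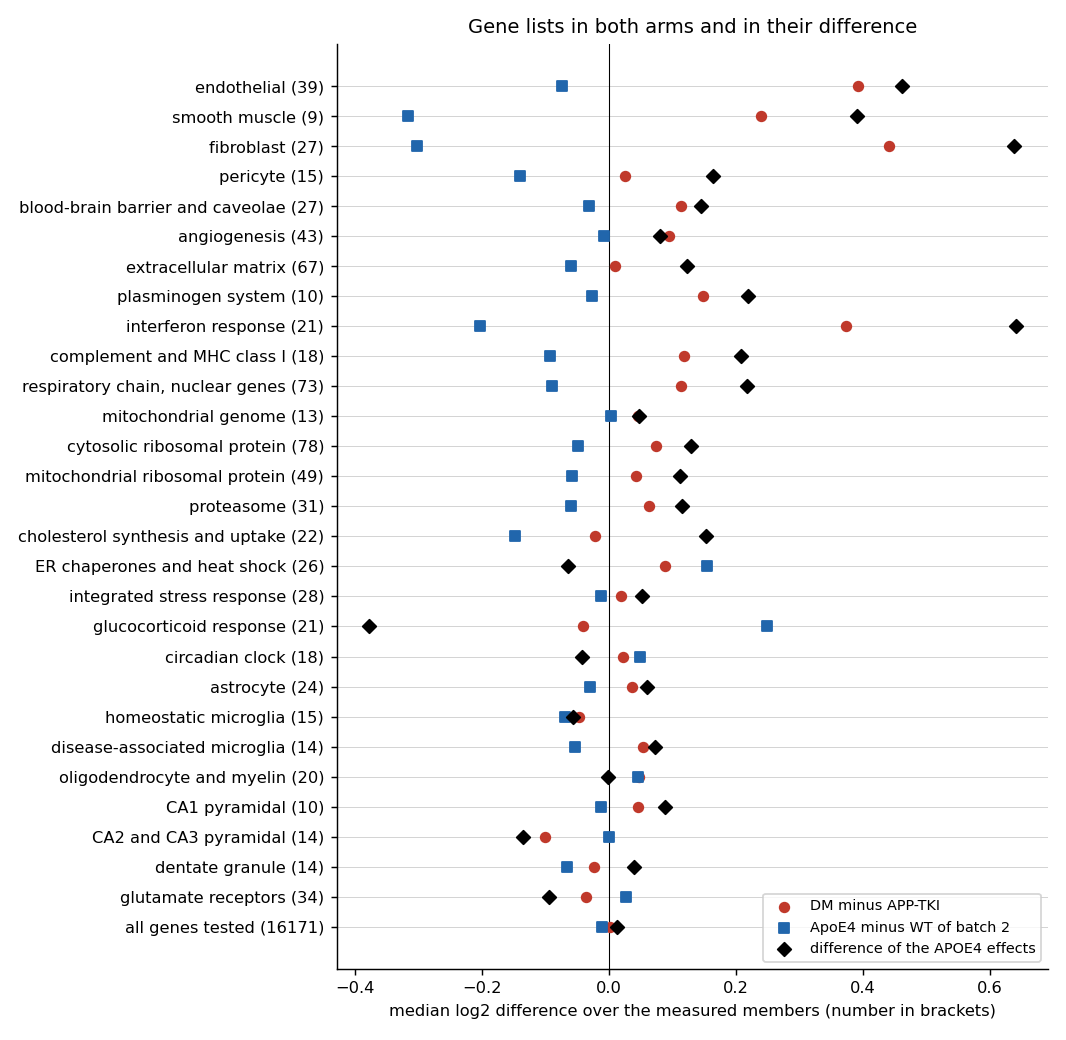
Median log2 difference over the measured genes of each list (number in brackets) with *App* mutations (circles), without them (squares) and in the difference of the *APOE4* effects (diamonds). Endothelial, fibroblast and interferon lists have medians of 0.46, 0.64 and 0.64 in the difference, against 0.01 for all genes, and the glucocorticoid list has -0.38.

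The remaining genes among the 12 higher ones had narrower spreads than the vascular genes. *Ndst4*, which sulfates heparan sulfate chains (chromosome 3, 125404076 to 125728899, GRCm38), stood at 37.4, 36.2 and 42.8 CPM in APP-TKI and 47.9, 48.5 and 49.8 CPM in DM mice. It stood at 38.8, 42.7 and 35.4 CPM in WT and 28.5, 32.8 and 29.1 CPM in ApoE4 mice, and the difference was 0.70 ± 0.12. *Ssu72*, a phosphatase of the RNA polymerase II tail, had 0.32 ± 0.07, with 45.5 to 47.3 CPM in APP-TKI, 51.6 to 54.8 CPM in DM, 49.7 to 50.7 CPM in WT and 45.8 to 46.3 CPM in ApoE4 mice. *Hdac9*, a class IIa histone deacetylase, had 0.43 ± 0.09, and *Txn1*, the cytosolic thioredoxin that reduces protein disulfides, 0.39 ± 0.09. All these 4 genes were separate in opposite directions on both backgrounds. That was so for 7 of the 12 higher genes and for 6 of the 12 lower ones. The shares of all genes were 0.427% and 0.223%, but the 24 genes were chosen for the same difference in the same libraries, so the counts only describe them. On a single background, DM libraries lay entirely above APP-TKI in 5.03% and below in 2.90% of genes, and ApoE4 entirely above WT in 5.39% and below in 6.79%.

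In the other direction, the genes with the smallest p had most of their difference in batch 2. *Glp1r*, the receptor of the hormone GLP-1 (chromosome 17, 30901817 to 30940791, GRCm38), stood at 6.86, 5.66 and 4.14 CPM in APP-TKI and 2.696, 3.88 and 3.78 CPM in DM mice. It stood at 6.48, 15.4 and 12.3 CPM in WT and 21.2, 20.1 and 29.5 CPM in ApoE4 mice. DM was below APP-TKI and ApoE4 above WT in every library, and the difference was -1.74 ± 0.37, with a 95% confidence interval of -2.53 to -0.94. *Col6a3*, a chain of collagen VI, was 10.9, 7.21 and 3.58 CPM in APP-TKI, 3.68, 3.13 and 2.83 CPM in DM, 3.20, 9.83 and 11.8 CPM in WT and 19.1, 14.1 and 23.6 CPM in ApoE4 mice. Its difference of -2.35 ± 0.57 came with a spread of more than 3-fold within both APP-TKI and WT. *Postn*, periostin of the matrix, had -1.77 ± 0.56, with 1.197 from batch 2.

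*Hif3a*, a subunit of hypoxia-inducible factors, was 5.63, 12.7 and 13.8 CPM in APP-TKI and 7.26, 6.98 and 7.42 CPM in DM mice, which overlapped. It was 4.70, 5.67 and 8.59 CPM in WT and 11.7, 14.9 and 15.4 CPM in ApoE4 mice, which did not, and the difference was -1.72 ± 0.40. The others of the 12 differed by less. *Daam2*, a formin of Wnt signalling, was 118, 129 and 110 CPM in APP-TKI and 106, 102 and 98.7 CPM in DM mice, and 118, 101 and 114 CPM in WT and 134, 121 and 141 CPM in ApoE4 mice, for -0.47 ± 0.11. *Epha3*, an ephrin receptor, had -0.57 ± 0.15, *Tead1*, the DNA-binding partner of YAP, -0.41 ± 0.11, and *Mrtfa*, a coactivator of serum response factor, -0.42 ± 0.10. *Pitpnm3*, a phosphatidylinositol transfer protein, had -0.47 ± 0.12, and *Fmnl1*, a formin, -0.42 ± 0.11. *Sgsm1*, *Ttyh3* and *Klhl29* had -0.38 ± 0.09, -0.32 ± 0.08 and -0.29 ± 0.07. In 11 of the 12 the effect without *App* mutations was larger than the effect with them, and in 9 of the 12 higher genes the opposite held.

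Genes induced by glucocorticoids, the adrenal stress hormones, had a median of -0.38, with 5 of 21 above 0, 0 higher and 8 lower at an unadjusted p under 0.05. The effect lay in batch 2, where the median was 0.25 and 10 genes were higher at p under 0.05, against -0.04 with *App* mutations. The list summed to 1485, 1468 and 1551 CPM in ApoE4 and 1148, 1234 and 1383 CPM in WT mice, which did not overlap. It summed to 962, 1234 and 1154 CPM in APP-TKI and 1232, 1119 and 1109 CPM in DM mice, which did. *Cdkn1a*, the cell cycle inhibitor p21, was 14.95, 13.4 and 14.4 CPM in ApoE4 and 4.78, 8.51 and 9.002 CPM in WT mice, with a difference of effects of -0.996 ± 0.28. *Fkbp5*, a chaperone that dampens the glucocorticoid receptor, was 64.9, 77.0 and 78.0 CPM in ApoE4 and 56.6, 53.8 and 54.8 CPM in WT mice, with -0.50 ± 0.15. *Zbtb16*, a zinc finger repressor, was 79.1, 96.9 and 89.4 CPM in ApoE4 and 65.6, 61.8 and 58.0 CPM in WT mice, with -0.56 ± 0.16. Without the 2 libraries high in striatal or thalamic genes the median was -0.48 and 10 genes were lower at p under 0.05. It was -0.24 without APP-TKI replicate 3 or without batch 2 WT replicate 1. No source used here gives the hour at which tissue was taken, and *Per2*, a clock gene that glucocorticoids also induce, had -0.44 ± 0.17.

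The palindrome bound by the glucocorticoid receptor, searched as GNACANNNTGTNC in the same windows, was present in 0.353% of genes and in 3 of the 19 glucocorticoid genes with an entry. *Sgk1*, a kinase of ion transport, holds 1 such position 175 bases before its start, and its window is shown for that reason, chosen after its values were seen (chr10:21993640-21993889, plus strand, the match in capitals).
Sgk1: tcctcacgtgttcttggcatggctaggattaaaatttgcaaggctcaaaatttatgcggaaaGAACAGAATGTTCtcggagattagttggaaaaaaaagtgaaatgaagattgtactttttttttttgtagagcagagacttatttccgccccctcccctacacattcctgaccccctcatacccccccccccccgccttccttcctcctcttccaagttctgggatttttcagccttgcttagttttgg
*Sgk1* was 56.4, 109 and 77.2 CPM in APP-TKI and 67.5, 83.2 and 57.6 CPM in DM mice. It was 120, 139 and 181 CPM in WT and 209, 182 and 209 CPM in ApoE4 mice, for a difference of -0.66 ± 0.28.

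Chaperones of the endoplasmic reticulum and heat shock genes leaned the same way by less. Of these, 8 of 26 lay above 0, with 1 higher and 3 lower at an unadjusted p under 0.05 and a median of -0.06. Unlike the glucocorticoid list, most were higher with *APOE4* on both backgrounds. With *App* mutations 22 of 26 lay above 0 (median 0.09), and without them 19 of 26 (median 0.15). *Hyou1*, a chaperone of the reticulum, was 114, 118 and 116 CPM in ApoE4 and 98.6, 101 and 103 CPM in WT mice, while APP-TKI at 89.6 to 95.1 CPM and DM at 91.5 to 94.9 CPM overlapped. Its difference was -0.18 ± 0.06. *Creld2* and *Hspa1b* had -0.30 ± 0.13 and -0.38 ± 0.17, both from batch 2, and *Hspe1*, a chaperone of mitochondria, had 0.28 ± 0.08. Cholesterol synthesis and uptake had a median of 0.15, with 17 of 22 above 0 and 1 at p under 0.05. This was *Insig1*, which holds back the sterol sensor, at 0.32 ± 0.13, with an effect near 0, at -0.03, with *App* mutations. The integrated stress response had 2 genes higher and 1 lower at p under 0.05 among 28, where 6.85% of all genes had such a p. Among these genes was *Gpt2*, an alanine transaminase, at -0.38 ± 0.11. The median of the list was 0.05 (-0.00 without the 2 libraries high in striatal or thalamic genes).

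The genes that define the models differed little. *App* had a difference of 0.04, with a 95% confidence interval of -0.13 to 0.20, and mean levels of 1271 CPM in APP-TKI, 1342 CPM in DM, 1538 CPM in WT and 1583 CPM in ApoE4 mice. *Apoe* had 0.18, with an interval of -0.07 to 0.43. Human and mouse reads stand in 1 row of the deposited table, so *Apoe* does not check the genotype. *Mapt*, the gene of tau, had -0.07, with an interval of -0.21 to 0.06. *Ide*, a protease that degrades Aβ, had 0.59 ± 0.27, and DM replicates 1 and 3 at 85.6 and 84.3 CPM stood apart from replicate 2 at 57.6 CPM. Among 24 measured genes around *Apoe*, 4 were higher at an unadjusted p under 0.05 and the median was 0.01. They were *Snrpd2* (0.29 ± 0.10), *Gemin7* (0.30 ± 0.12), *Bcam* (0.74 ± 0.29) and *Nectin2* (0.56 ± 0.25).

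Among glial genes few had a small p. Homeostatic microglia genes had a median of -0.06 and 0 of 15 at an unadjusted p under 0.05 by edgeR, in either direction, and disease-associated microglia genes a median of 0.07 and 1 of 14. *Trem2*, the lipid receptor of microglia, had 0.02, with an interval of -0.28 to 0.32, and its partner *Tyrobp* had 0.06, with an interval of -0.26 to 0.39. *Trem2* was 12.4 to 13.9 CPM in APP-TKI and 11.8 to 13.9 CPM in DM mice, and 8.30 to 10.03 CPM in WT and 8.24 to 9.32 CPM in ApoE4 mice. *Spp1*, osteopontin, had 0.61 with an interval of -0.56 to 1.78, and *Ccl6*, a chemokine, -0.09 with an interval of -0.75 to 0.57. Both are genes of a few CPM and their intervals are wide. Astrocyte and oligodendrocyte genes had medians of 0.06 and -0.00 with 0 of 24 and 0 of 20 at p under 0.05. Leaving out 1 library placed the median of oligodendrocyte genes between -0.09 and 0.16 and that of homeostatic microglia genes between -0.10 and 0.05. The astrocyte median was -0.01 without DM replicate 3, and -0.04 with 4 genes lower at p under 0.05 without the 2 libraries high in striatal or thalamic genes. Without the 3 libraries high in choroid plexus, striatal or thalamic genes the median was 0.07 with 2 genes higher for homeostatic microglia and 0.23 for oligodendrocytes, and without the 4 libraries high in noncoding RNA it was 0.03 and 0.13.

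Genes of CA2 and CA3 pyramidal neurons had a median of -0.14, with 4 of 14 above 0 and 3 lower at an unadjusted p under 0.05, among them *Nptx1*, a secreted pentraxin of synapses (-0.32 ± 0.12), and *Cacng5*, an auxiliary subunit of AMPA receptors (-0.75 ± 0.33). Without the 4 libraries high in noncoding RNA the median was 0.01 with 8 of 14 above 0 and 0 lower, and without the 3 libraries high in other tissues it was -0.05 with 0 lower. Leaving out APP-TKI replicate 1 or ApoE4 replicate 3 left 1 lower. CA1 and dentate genes had medians of 0.09 and 0.04, which were -0.02 without ApoE4 replicate 3 and -0.06 without APP-TKI replicate 3. The dentate median was -0.05 without the 3 libraries. Glutamate receptors and their scaffolds had a median of -0.10, with 8 of 34 above 0, 1 higher and 2 lower at p under 0.05. *Shank2*, a scaffold of the postsynaptic density, had -0.29 ± 0.10, *Grm7*, a presynaptic glutamate receptor, -0.22 ± 0.08, and *Grin3a*, a subunit of NMDA receptors, 0.43 ± 0.18. Presynaptic genes had 1 higher and 2 lower among 34, with a median of 0.01. Of all genes 6.85% had p under 0.05, so counts this small do not set either list apart.

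Several large differences moved with the libraries that stood apart. Striatal genes had a median of -1.31 with 0 of 13 above 0, and 0.00 with 7 above 0 without ApoE4 replicate 3. Genes of the thalamus and habenula had a median of 0.93 with 12 of 15 above 0, and -0.08 with 6 above 0 without batch 2 WT replicate 3. *Tac2*, a tachykinin, was 23.8 CPM there against 1.98 and 2.21 CPM in the other WT libraries. The choroid plexus list had a median of -0.39, which was -2.16 without batch 2 WT replicate 3 and 1.27 without ApoE4 replicate 1.

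The pituitary hormones *Prl* and *Gh* passed the filter only because of the 3 batch 2 WT libraries, so their fitted differences had to be large. *Prl*, prolactin, was 4.32, 6.94 and 11.8 CPM in WT and 0.134, 1.35 and 0.371 CPM in ApoE4 mice of batch 2. It was 0, 0.879 and 0 CPM in APP-TKI and 0.337, 1.64 and 0 CPM in DM mice. *Gh*, growth hormone, was 1.63, 3.07 and 5.02 CPM in WT and at most 0.677 CPM in the other 9 libraries of the comparison. *Pomc*, the precursor of corticotropin, was 1.95, 3.40 and 6.24 CPM in WT and 0.812 to 0.989 CPM in ApoE4 mice, with a difference of 2.38 ± 0.54, which DESeq2 called and which rests on those WT libraries. The difference of effects was 4.83 ± 1.51 for *Prl* and 4.32 ± 1.36 for *Gh*, with -3.66 and -3.31 from batch 2. The study counted prolactin and growth hormone among genes that change in mouse brain over the estrus cycle, and left such genes out. Its text does not give the cycle stage of these females, and the part of cycle stage was not tested here. The part of neighbouring tissue in the other results was not tested beyond the values without those libraries.

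The 26 genes that DESeq2 called were 20 of the 24 genes described above as having the smallest p, with *Tagln*, *Cldn5*, *Ifit3*, *Pomc*, *Gm10736* and the annotated miRNA gene *Gm24157*. The adjusted p of those 24 by the quasi-likelihood test of edgeR ran from 0.2625 to 0.6071.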

How the data were processed

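RNA of whole hippocampus was sequenced from directional libraries of polyadenylated RNA. Per the labels and the paper's methods, the authors trimmed reads with Trimmomatic 0.39, aligned them with STAR 2.7.1a to the mouse genome GRCm38 with the human *APOE* sequence added, counted reads per gene with HTSeq 0.11.2, merged human and mouse *APOE* counts and worked on in R 4.0.2. The deposited values are these raw counts, not normalized. How HTSeq was set for strand is not stated in these sources, which leaves overlapping and antisense genes uncertain.

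The tests were run with edgeR 4.0.16 and, as an alternative, DESeq2 1.42.0 in R 4.3.3 (with limma 3.58.1), and figures were drawn with matplotlib 3.10.9 in Python 3.11.15. Of 55471 gene IDs, 55230 were matched to symbols of a GENCODE annotation of GRCm38 that is an earlier release than the authors'. Genes over 1 CPM in at least 3 of the 15 libraries were kept and scaled by the upper quartile, and CPM are per effective library size. The quasi-likelihood test of edgeR was fitted to all 5 groups, with the contrast of the 4 groups compared and Benjamini-Hochberg adjustment over 16171 genes (threshold 0.1). The code was tested on simulated data. Alternatives were other tests, scalings, filters, covariates and left-out libraries.

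The members, the gene lists and this rule were chosen with earlier results of these data known: the 12 protein-coding genes of at least 1 mean CPM with the smallest p in each direction, genes named in the study, and up to 4 genes of each list described. Lists are given by counts and medians, without a test. Genes outside the rule are *Isg15* and *Sgk1*, *Gm10736* and the genes DESeq2 called. Some genes are not reported here.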

Additional observations from a re-analysis of the deposited data

Results flagged for a closer look

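In 69 genes (0.427% of 16171) all DM libraries exceeded all APP-TKI libraries while all ApoE4 libraries were below the 3 WT libraries of their batch. Their median difference of the *APOE4* effects was 0.33 on the log2 scale, 64 are protein-coding, and 62 had an unadjusted p under 0.05 by edgeR. They include the vascular genes *Myh11*, *Tpm2*, *Vtn*, *Kdr* and *Plau* and the interferon and antigen presentation genes *Ifit1*, *Ifit2*, *Ifit3* and *H2-Q4*. This order held for 1 of 39 endothelial, 1 of 15 pericyte, 2 of 9 smooth muscle and 3 of 21 interferon genes. It also held for 1 of 73 respiratory chain and 1 of 49 mitochondrial ribosomal genes. Most of the 69 genes are on none of these lists. In 36 genes (0.223%) the order was the reverse on both backgrounds, with a median of -0.46, 33 protein-coding and 29 at an unadjusted p under 0.05, among them *Glp1r*, *Daam2*, *Klhl29*, *Epha3*, *Tead1*, *Pitpnm3* and *Lama3*. Both sets drew attention because carriers of *APOE4* separated from mice without it in opposite directions with and without *App* mutations. The genes were picked by this order in the libraries that give the difference, so their medians and small p-values follow from the choice. On a single background, DM lay entirely above APP-TKI in 5.03% and below in 2.90% of genes. ApoE4 lay entirely above WT in 5.39% and below in 6.79%. Whether both sets exceed what these shares give was not tested. The difference itself was tested for each gene, and none of the 105 passed an adjusted p of 0.1 in the quasi-likelihood test of edgeR. Groups separate in the same direction on both backgrounds were fewer, at 20 genes (0.124%) higher and 26 (0.161%) lower.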

How the results depend on the processing

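Genes called in the difference of the *APOE4* effects numbered 0 by the edgeR quasi-likelihood test, 26 with DESeq2, 121 with the robust likelihood ratio test, 393 without a filter on low counts (345 of which pass it) and 1 (*Fam57b*) without the 4 libraries high in noncoding RNA, with 0 whichever single library was left out. With *App* mutations 1 gene was called, against 20, 42 and 116 with DESeq2, the robust test and no filter. With the summed level of 17 nuclear long noncoding RNAs as a covariate it was 2, and without 1 library 0 to 1. It was 0 at an adjusted p under 0.05 and in a fit of that batch alone. Without the 2 or 3 libraries high in other tissues it was also 0. Without *App* mutations 0 were called, against 45, 102 and 512, and 0 to 9 without 1 library (9 without WT replicate 2 and 1 without WT replicate 1). Genes at an unadjusted p under 0.05 in the difference numbered 1107, against 2131 without a filter, 656 and 452 without the 2 or 3 libraries, and 638 (without ApoE4 replicate 3) to 1845 (without DM replicate 1), with 709 and 1792 without APP-TKI replicates 2 and 3. The cause of these changes was not tested. Of 96 genes, 92 kept the sign of their difference in every alternative run. The exceptions were *Trem2* (-0.053 to 0.084 without 1 library), *Tyrobp* (-0.025 to 0.14), *App* (-0.0059 to 0.073) and *Ccl6* (-0.28 to 0.19, and 0.056 without the 2 libraries), all near 0. Of 891 alternative list medians, 62 moved by more than the SD of the list's mean level between libraries of a group. Deviations of same-numbered libraries correlated above 0.1 in 7 of 9 pairs of batch 1 (-0.32 to 0.45), among them all 3 of DM with WT (0.19 to 0.45) but not all of APP-TKI with DM (-0.12 to 0.23), and in 0 of 3 of batch 2 (-0.27 to 0.07). Not every pair in the comparison correlated and no label ties the numbers to litters, so no pairing was assumed. A replicate block gave 0 calls in the difference, 0 with *App* mutations and 1316 genes at p under 0.05.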
